A study of Mus musculus with 8 samples.

Results

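The genes of the proteasome, the protease that degrades ubiquitin-tagged proteins, were followed in mouse macrophages with and without the creatine transporter Slc6a8. The members were all genes whose symbol starts with Psma, Psmb, Psmc, Psmd, Psme or Psmg and a number, together with the maturation factor Pomp. This gave 50 of the 18125 genes listed, and all 50 passed the filter on low counts in every fit. By role they were 7 subunits of the alpha ring of the core particle and 3 standard catalytic and 4 non-catalytic subunits of its beta ring. A further 3 were the catalytic subunits of the immunoproteasome, and 2 were the alpha and beta subunits of its activator PA28. The regulatory cap gave 6 ATPases and 11 non-ATPase subunits, and 8 genes were assembly chaperones. The remaining 6 were the activators Psme3 and Psme4, Psme2b (a near copy of Psme2), the thymus subunit Psmb11, the testis subunit Psma8, and Psmc3ip, which shares the name only and codes for a recombination factor.

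The RNA came from 8 cultures, 1 library per group. Thioglycollate-elicited peritoneal macrophages were Slc6a8-/y (knockout, KO) treated with IFN-gamma, KO untreated, wild-type (WT) treated with IFN-gamma and WT untreated. Bone marrow-derived macrophages, grown for 5 days with 10% M-CSF, were KO treated with IL-4, KO untreated, WT treated with IL-4 and WT untreated. IFN-gamma was given at 10 ng/mL for 12 hours, IL-4 at 10 ng/mL for 6 hours, and all mice had a C57BL/6 background. Slc6a8 lies on the X chromosome, so that a male carrying the mutant allele has no other copy. The series asks how the lack of creatine changes transcription during macrophage polarisation.

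With 1 library per group, each fit used libraries of the other genotype, treatment or cell type in place of replicates. Its p-values rest on how far the libraries depart from the additive model. Whether cultures of the same genotype came from separate animals is not stated in the labels. Total expected counts were 10812678 to 11065427 in peritoneal and 20553654 to 21221526 in bone marrow-derived libraries. The targeted gene Slc6a8 had 0.18 and 0.73 FPKM in IFN-gamma-treated and untreated KO peritoneal libraries, against 39.5 and 163.5 FPKM in the WT ones. In bone marrow-derived libraries it had 1.15 and 1.71 FPKM in IL-4-treated and untreated KO cells, against 87.9 and 97.3 FPKM in WT cells. The 8 macrophage markers summed to 6090 to 14491 FPKM. Lists for dendritic, B, T and NK cells, neutrophils and eosinophils, basophils or mast cells each stayed at or under 13.5 FPKM in every library. Of the T and NK cell markers, Cd3g and Nkg7 were not among the genes analysed here and added 0 to that sum. The 6 fibroblast or mesothelium markers summed to 64.8 to 92.2 FPKM in peritoneal and 110.7 to 248.8 FPKM in bone marrow-derived libraries. Col1a1 made up most of the latter, at 93.7 to 208.7 FPKM, and Col3a1 was also higher there. The others, Dcn, Pdgfra, Msln and Upk3b, were higher in peritoneal libraries, such as Dcn at 31.5 to 36.4 FPKM, against 2.74 to 4.68 FPKM. The erythroid or megakaryocyte markers summed to 15.1 to 98.0 FPKM over all 8 libraries. In such bulk RNA, fewer cells of a type and less RNA per cell cannot be told apart.

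The core particle is a barrel of stacked rings, whose outer alpha rings gate the entrance and whose inner beta rings hold the protease sites. The cap binds, unfolds and feeds in ubiquitin-tagged proteins. Interferon is known to induce Psmb8, Psmb9 and Psmb10, which take the places of Psmb5, Psmb6 and Psmb7 in newly built particles and shift the cut sites towards peptides that MHC class I can present. PA28, made of Psme1 and Psme2, caps the same barrel without ATP, and Pomp helps newly built core particles to mature. In cells short of proteasome activity the factor NRF1, coded by Nfe2l1, raises the standard subunits together.

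The genes carry different start regions. In GRCm38.p6 coordinates, which are those of mm10, Psmb8 spans chr17:34198195-34201454 and Psmb9 chr17:34182030-34187330, inside the major histocompatibility complex. The PA28 pair lies on chromosome 14, Psme1 at chr14:55578494-55581527 and Psme2 at chr14:55587440-55591101. Psmb10 lies at chr8:105935728-105938392. Of the standard catalytic genes, Psmb5 is at chr14:54614120-54617995, Psmb6 at chr11:70525324-70527858 and Psmb7 at chr2:38588046-38643952. The RefSeq start regions of 3 immunoproteasome and PA28 genes and of the standard counterparts Psmb5 and Psmb6 are printed for comparison, each from 250 bases before to 50 bases after the start, on the strand of the gene. Capitals mark a match to 1 of 4 motifs: the interferon-gamma-activated site, GAS (TTCNNNGAA), the IRF element (GAAA, 2 bases of any kind and GAAA again), the antioxidant response element of the NRF1 and NRF2 family (TGACNNNGC) and an NF-kB site (GGGA, 2 bases of any kind and TTCC), searched on both strands. The windows are chr17:34197945-34198244 on the plus strand for Psmb8, chr17:34187281-34187580 on the minus strand for Psmb9, chr14:55578244-55578543 on the plus strand for Psme1, chr14:54617946-54618245 on the minus strand for Psmb5 and chr11:70525107-70525406 on the plus strand for Psmb6.
Psmb8: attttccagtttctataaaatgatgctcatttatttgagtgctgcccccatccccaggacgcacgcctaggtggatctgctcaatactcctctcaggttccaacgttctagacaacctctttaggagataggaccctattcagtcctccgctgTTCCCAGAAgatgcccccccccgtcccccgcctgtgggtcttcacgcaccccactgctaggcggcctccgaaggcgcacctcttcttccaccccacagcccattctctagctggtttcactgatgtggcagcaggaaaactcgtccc
Psmb9: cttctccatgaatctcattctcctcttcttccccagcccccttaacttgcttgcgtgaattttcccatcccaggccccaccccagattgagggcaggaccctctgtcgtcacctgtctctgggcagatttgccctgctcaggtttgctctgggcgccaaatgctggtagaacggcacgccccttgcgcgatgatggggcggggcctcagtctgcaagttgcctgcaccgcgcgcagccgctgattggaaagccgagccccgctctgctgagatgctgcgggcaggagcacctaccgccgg
Psme1: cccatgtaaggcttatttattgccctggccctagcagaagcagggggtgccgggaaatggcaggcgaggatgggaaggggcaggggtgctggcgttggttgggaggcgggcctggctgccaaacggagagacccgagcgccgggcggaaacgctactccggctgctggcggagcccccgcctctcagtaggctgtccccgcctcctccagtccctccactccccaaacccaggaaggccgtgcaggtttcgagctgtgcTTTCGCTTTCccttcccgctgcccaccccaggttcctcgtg
Psmb5: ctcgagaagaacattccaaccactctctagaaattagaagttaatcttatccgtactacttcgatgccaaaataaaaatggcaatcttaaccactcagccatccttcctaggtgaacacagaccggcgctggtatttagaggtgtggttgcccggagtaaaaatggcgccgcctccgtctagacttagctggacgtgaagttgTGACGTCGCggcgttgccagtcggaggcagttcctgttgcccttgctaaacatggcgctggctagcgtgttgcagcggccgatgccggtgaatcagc
Psmb6: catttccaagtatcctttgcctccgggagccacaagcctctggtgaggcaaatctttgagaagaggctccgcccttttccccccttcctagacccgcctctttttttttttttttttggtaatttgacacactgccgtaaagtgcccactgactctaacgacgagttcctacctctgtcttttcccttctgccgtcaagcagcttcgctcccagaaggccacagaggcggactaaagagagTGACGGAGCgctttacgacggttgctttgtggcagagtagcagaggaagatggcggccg

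The Psmb8 window held a GAS, TTCCCAGAA, from 97 to 89 bases before the start, which reads as a match on both strands. The Psme1 window held an IRF element on the minus strand from 10 to 19 bases after the start, printed there as TTTCGCTTTC. The Psmb9 window held none of the 4 motifs. It shares 275 of its 300 bases with the window of the peptide transporter gene Tap1, whose start lies 226 bases away on the opposite strand. The Psmb5 and Psmb6 windows each held an antioxidant response element, TGACGTCGC from 47 to 39 bases and TGACGGAGC from 9 to 1 bases before the start.

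Start regions were found for 42 of the 50 members, in 45 windows. Of the 6 windows of the 5 immunoproteasome and PA28 genes, 1 held a GAS and 1 an IRF element, and 0 held either other motif. Of 27 windows of standard core and cap genes, 1 held a GAS (Psmd2), 2 an IRF element (Psmb3 and Psmd4), 4 an antioxidant response element (Psmb5, Psmb6, Psmc6 and Psmd12) and 0 an NF-kB site. Among all 32851 windows of the genome, the GAS was found in 8.3%, the IRF element in 3.44%, the antioxidant response element in 12.4% and the NF-kB site in 1.47%. No matches of different motifs overlapped in the members' windows. A match is a run of letters and was not tested as a bound site.

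As groups, the cap genes had similar medians in the 8 libraries, while the immunoproteasome and PA28 genes differed most between them. The median of the standard core genes was 81.3 and 87.5 FPKM in IFN-gamma-treated KO and WT cells, and 57.6 to 67.1 FPKM elsewhere. The 14 standard core genes had a median of 57.6 to 87.5 FPKM per library and the 17 cap genes a median of 41.6 to 49.8 FPKM, while the median of the 5 immunoproteasome and PA28 genes ran from 38.9 to 208.7 FPKM. Single standard genes moved more than their group, such as Psma3 at 16.5 to 49.0 FPKM and Psma5 at 23.2 to 60.3 FPKM. Psmb6, which codes for the standard caspase-like site, was the highest of the core genes in every library, and Psmd8, a non-ATPase cap subunit, the highest of the cap genes, at 293.3 to 381.3 FPKM in peritoneal and 184.2 to 214.8 FPKM in bone marrow-derived libraries. The 5 immunoproteasome and PA28 genes together summed to 1045 and 1111 FPKM in IFN-gamma-treated KO and WT cells, against 213.3 and 260.6 FPKM in untreated KO and WT cells. In bone marrow-derived macrophages their sum was 355.0 and 290.7 FPKM in IL-4-treated KO and WT cells, against 276.2 and 240.6 FPKM in untreated ones. Apart from Pomp, at 76.6 to 273.6 FPKM, the assembly chaperones were low, at or under 25.0 FPKM in every library. Those of the core were Psmg1 at 5.93 to 8.77 FPKM, Psmg2 at 7.79 to 9.73 FPKM, Psmg3 at 7.07 to 9.82 FPKM and Psmg4 at 10.4 to 25.0 FPKM, and those of the cap Psmd5 at 12.5 to 16.8 FPKM, Psmd9 at 8.38 to 10.6 FPKM and Psmd10 at 10.2 to 21.0 FPKM. The activators Psme3 and Psme4 held narrow ranges of 38.8 to 43.9 and 15.3 to 21.3 FPKM. A further 3 members were low. The thymus subunit Psmb11 had 0.07 to 1.22 FPKM, the testis subunit Psma8 0.28 to 0.81 FPKM and Psmc3ip 0.57 to 1.47 FPKM.

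**Figure D1:**
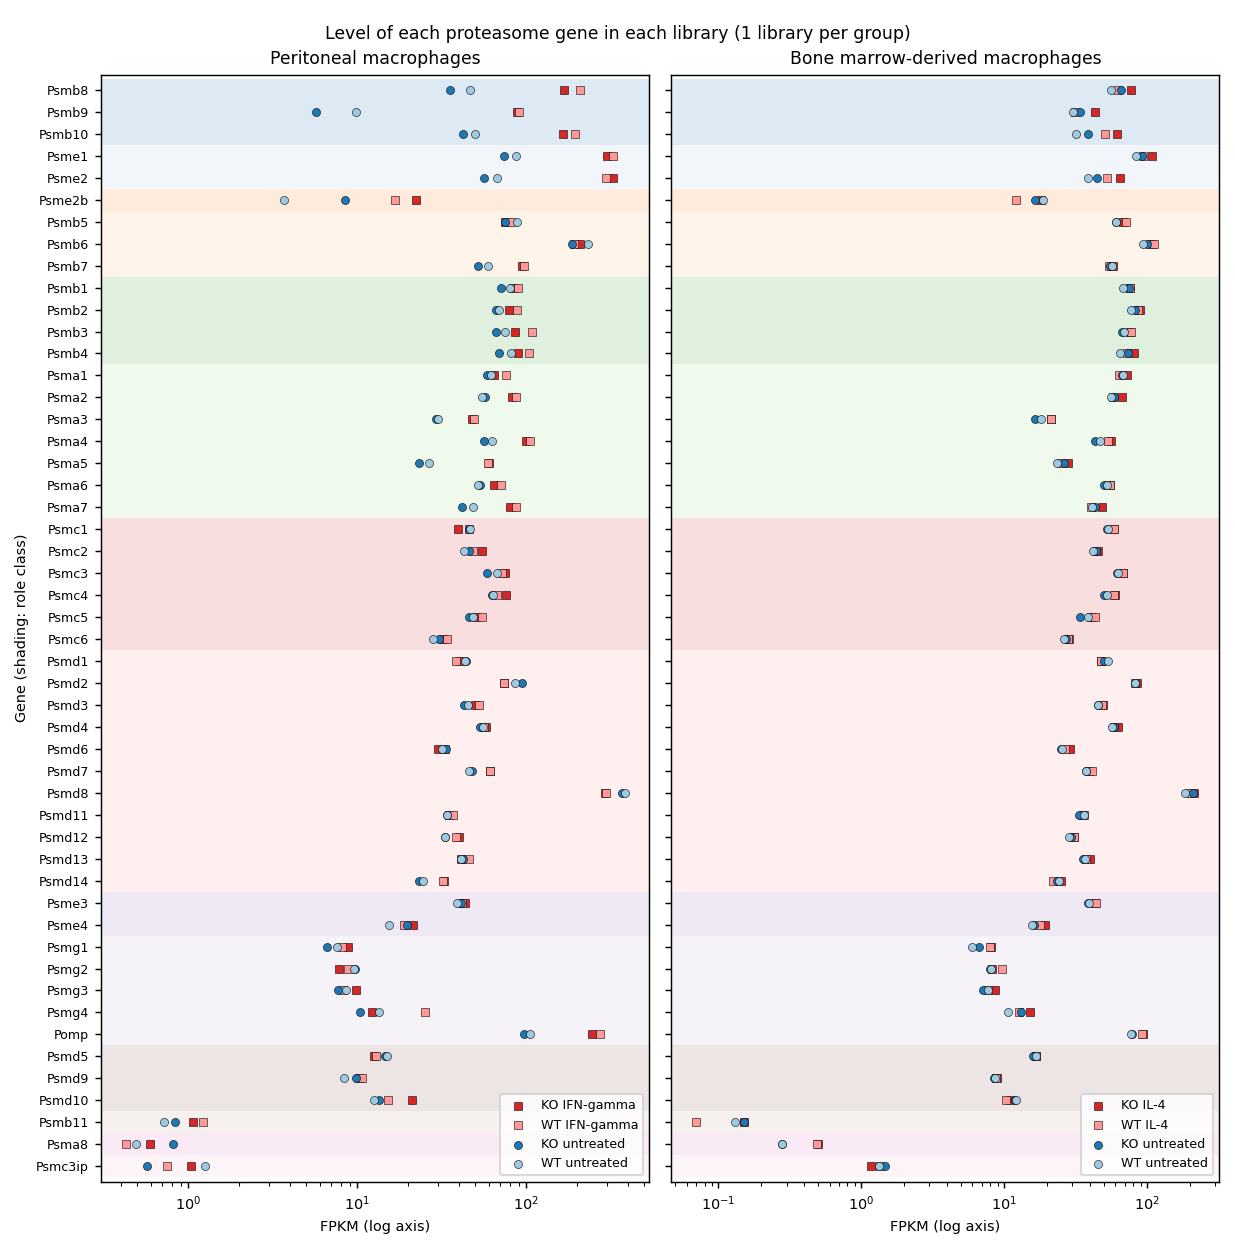
FPKM of proteasome genes in each of the 8 libraries, on a log axis, with 1 point per library and the libraries in colours. Psmb8, Psmb9, Psmb10, Psme1 and Psme2 reach 87.5 to 323.9 FPKM in the IFN-gamma-treated libraries, against 5.73 to 87.1 FPKM in the untreated peritoneal ones.

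IFN-gamma raised every catalytic subunit of the immunoproteasome and both PA28 subunits in peritoneal macrophages, in both genotypes. Psmb8, the chymotrypsin-like site of the immunoproteasome, had 167.6 and 208.7 FPKM in IFN-gamma-treated KO and WT cells, against 35.4 and 46.5 FPKM in untreated KO and WT cells. Psmb9, its counterpart of the Psmb6 site, had 87.5 and 90.5 FPKM in treated KO and WT cells, against 5.73 and 9.81 FPKM in untreated ones, where they rested on 49 and 83 expected counts. Psmb10, the trypsin-like site, had 165.3 and 193.0 FPKM in treated KO and WT cells, against 42.1 and 49.7 FPKM in untreated ones. In all 3 genes both treated libraries stood far above both untreated libraries, with no overlap. The share of all genes separated in this way is not given, here or for the later comparisons.

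Psme1, the alpha subunit of PA28, had 300.3 and 323.7 FPKM in treated KO and WT cells, against 73.5 and 87.1 FPKM in untreated ones. Psme2, the beta subunit, had 323.9 and 295.1 FPKM in treated KO and WT cells, against 56.5 and 67.5 FPKM in untreated ones. Again the treated and untreated libraries did not overlap. In the additive edgeR fit the log2 difference of treated over untreated was 3.63 ± 0.20 (SE) for Psmb9, 2.42 ± 0.14 for Psme2, 2.30 ± 0.10 for Psmb8, 2.06 ± 0.10 for Psmb10 and 2.06 ± 0.11 for Psme1. The adjusted p-values of edgeR lay between 6.01e-05 for Psmb8 and 1.41e-04 for Psme2, and the genes were higher in 2 of 2 genotypes. All 5 also passed with every tool, filter and scaling tried, the highest adjusted p over these being 0.00121, for Psmb9.

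In the whole set 22 of 50 members rose with IFN-gamma and 0 fell, where 17.2% of the 12052 genes tested rose and 14.9% fell. At an unadjusted p under 0.05, 32 members were higher and 1, Psmd8, lower, where 22.3% of all genes tested were higher and 21.1% lower, and DESeq2 called 13 higher and 0 lower. The median log2 difference was 2.30 over the 5 immunoproteasome and PA28 genes and 0.32 over the 31 standard core and cap genes, against -0.01 over all genes tested. The lowest of the 5, at 2.06, lay above the highest of the 31, Psma5 at 1.37. Psmd8 had 293.3 and 296.7 FPKM in treated KO and WT cells, against 367.3 and 381.3 FPKM in untreated ones, and limma and the fit over 8 libraries did call it lower. The T and NK cell markers summed to 3.99 and 2.19 FPKM in treated KO and WT cells, against 1.41 and 0.79 FPKM in untreated ones, the neutrophil markers to 9.78 and 13.5 FPKM, against 7.37 and 5.39 FPKM, and the erythroid or megakaryocyte markers to 98.0 and 76.7 FPKM, against 69.7 and 53.3 FPKM. Their part in the results was not tested.

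The alpha ring, which all forms of the core share, rose in 6 of its 7 genes, with a median log2 difference of 0.81 over the 7. Psma6, the lowest of the 6, passed under 3 of 6 alternative settings, with adjusted p-values up to 0.184 over edgeR, DESeq2 and limma. Psma5 had 60.3 and 59.7 FPKM in treated KO and WT cells, against 23.2 and 26.4 FPKM in untreated ones, a log2 difference of 1.37 ± 0.12 (edgeR adjusted p = 5.73e-04). Psma7 had 80.6 and 87.3 FPKM in treated KO and WT cells, against 41.7 and 48.4 FPKM in untreated ones, a log2 difference of 0.99 ± 0.11 (edgeR adjusted p = 0.0013). Both genes were well separated by treatment in either genotype. Psma4, Psma3, Psma2 and Psma6 followed at 0.89, 0.81, 0.69 and 0.45. Psma1 stood at 0.32 and missed the threshold, with 64.7 and 75.5 FPKM in treated KO and WT cells, against 58.4 and 61.7 FPKM in untreated ones.

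In the beta ring the 3 standard catalytic genes, whose places the immunoproteasome subunits take, did not move together. Psmb7, the counterpart of Psmb10, rose: it had 93.8 and 96.3 FPKM in treated KO and WT cells, against 51.9 and 59.2 FPKM in untreated ones (log2 difference 0.87 ± 0.11, edgeR adjusted p = 0.00216). Psmb5, the counterpart of Psmb8, had 75.2 and 81.2 FPKM in treated KO and WT cells, against 75.0 and 88.4 FPKM in untreated ones (0.04 ± 0.10, adjusted p = 0.822). Psmb6, the counterpart of Psmb9, had 207.1 and 191.2 FPKM in treated KO and WT cells, against 186.6 and 231.6 FPKM in untreated ones (0.03 ± 0.14, adjusted p = 0.881). Treated and untreated libraries were apart for Psmb7 and overlapped for Psmb5 and Psmb6. Of the 4 non-catalytic genes 3 rose, Psmb3 by 0.56, Psmb4 by 0.46 and Psmb2 by 0.40 on the log2 scale, and Psmb1 did not pass. DESeq2 called none of these 3.

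The regulatory cap moved less. None of the 6 ATPases, the Psmc genes that unfold substrates, passed in edgeR, and 5 of the 6 were at an unadjusted p under 0.05. Their median log2 difference was 0.28. Of the 11 non-ATPase subunits 4 rose: the deubiquitinase Psmd14 by 0.54, its partner Psmd7 by 0.48, and Psmd12 and Psmd3 by 0.34 and 0.32, with edgeR adjusted p-values of 0.0136, 0.013, 0.0487 and 0.0488. DESeq2 called none of the 4. The assembly chaperones were split. Pomp had 245.9 and 273.6 FPKM in treated KO and WT cells, against 96.6 and 105.8 FPKM in untreated ones, with no overlap (log2 difference 1.46 ± 0.10, edgeR adjusted p = 2.22e-04). The cap chaperone Psmd10 rose by 0.57 ± 0.15 (edgeR adjusted p = 0.0326), a call kept under 3 of 6 alternative settings and lost in DESeq2 and limma (adjusted p up to 0.258), and the other 6 chaperones did not pass. Of the other activators, neither Psme3, the nuclear relative of PA28, nor Psme4 passed.

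Psme2b also rose, by 1.81 ± 0.20 on the log2 scale (edgeR adjusted p = 0.00158), with 22.1 and 16.6 FPKM in treated KO and WT cells, against 8.44 and 3.69 FPKM in untreated ones. Its reads cannot be kept apart safely from those of Psme2, of which it is a near copy, so that its value is uncertain. The same limit holds for Psme2 in every comparison. The low value of the untreated WT library rested on 41.8 expected counts.

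**Figure D2:**
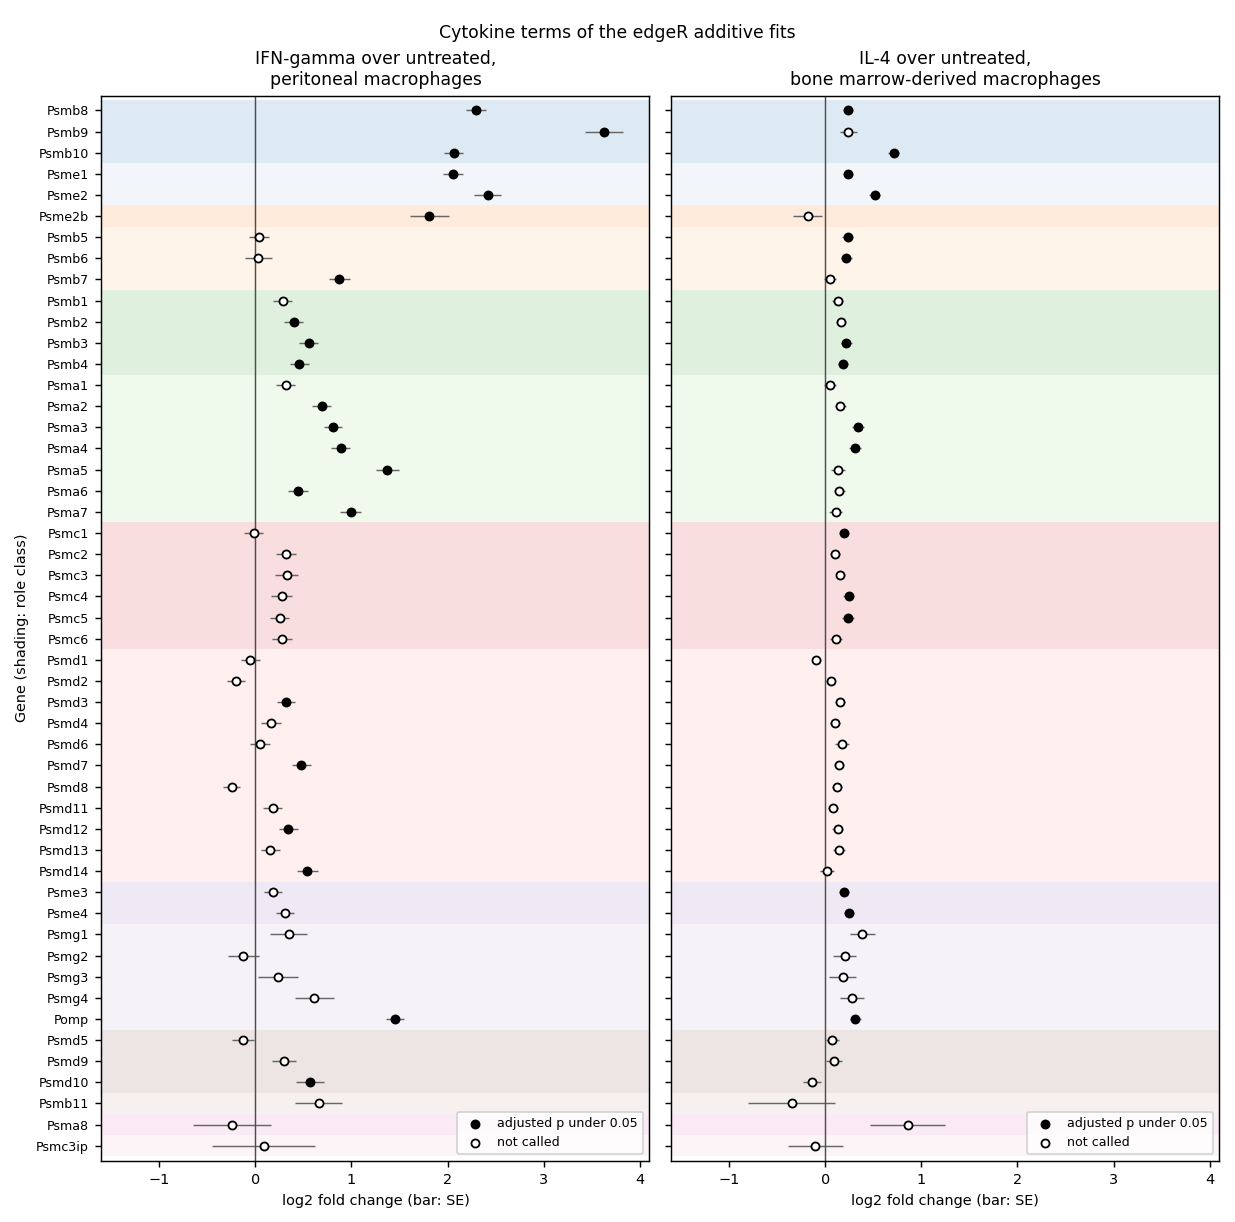
Log2 differences of proteasome genes by role, for IFN-gamma in peritoneal and IL-4 in bone marrow-derived macrophages, as fitted by edgeR, with SE bars and filled points where the adjusted p is under 0.05. The 5 immunoproteasome and PA28 genes lie at 2.06 to 3.63 with IFN-gamma and at 0.23 to 0.71 with IL-4.

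Genes that act around the proteasome were looked up in the same fit. The 9 interferon regulators and peptide transport genes all rose with IFN-gamma, with a median log2 difference of 3.27. Among them the transcription factor Irf1 rose by 5.68 and the peptide transporter Tap1, which shares its start region with Psmb9, by 4.74, while the peptide trimmer Erap1 rose by 1.37 and the MHC class I light chain B2m by 1.41. Of 6 genes in the NRF1 pathway 3 rose, Mafk by 1.18, Nfe2l2 by 0.56 and Nfe2l1 by 0.42. Of 11 further subunits and bound factors tested, Psmf1 and Ecpas rose, by 0.65 and 0.39, and Zfand2a and Zfand5, which code for zinc finger proteins that bind the proteasome, fell by 0.92 and 0.79. Of 13 ubiquitin genes and shuttles, Ubb rose by 0.35 and the shuttle Ubqln2 fell by 0.53. Zfand5 had 16.6 and 15.4 FPKM in treated KO and WT cells, against 31.9 and 27.3 FPKM in untreated ones.

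The balance of the 2 kinds of catalytic subunit was read from FPKM, which is per length, as the share of the immunoproteasome gene in each pair. Psmb8 made up 69.0% and 72.0% of the sum of Psmb8 and Psmb5 in IFN-gamma-treated KO and WT cells, against 32.1% and 34.5% in untreated ones. Psmb9 made up 29.7% and 32.1% of the sum of Psmb9 and Psmb6 in treated KO and WT cells, against 3.0% and 4.1% in untreated ones. Psmb10 made up 63.8% and 66.7% of the sum of Psmb10 and Psmb7 in treated KO and WT cells, against 44.8% and 45.6% in untreated ones. The Psmb9 pair thus had the lowest share in every peritoneal library, and the standard Psmb6 stayed the more abundant RNA in each. Over all 6 genes the share of the 3 immunoproteasome genes was 52.8% and 57.2% in treated KO and WT cells, against 21.0% and 21.8% in untreated ones.

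In bone marrow-derived macrophages the shares lay closer together. Psmb8 made up 53.3% and 46.6% of its pair in IL-4-treated KO and WT cells, against 52.1% and 47.9% in untreated ones. Psmb9 made up 28.6% and 21.7% in treated KO and WT cells, against 25.3% and 24.4% in untreated ones. Psmb10 made up 51.7% and 48.3% in treated KO and WT cells, against 41.5% and 36.0% in untreated ones. Only the Psmb10 share was higher with IL-4 in both genotypes, since those of Psmb8 and Psmb9 were lower with IL-4 in WT cells. Exact 95% binomial intervals of these shares cover counting error only, and that of Psmb8 was 67.2% to 70.8% in IFN-gamma-treated KO cells, against 29.5% to 34.7% in untreated KO cells.

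**Figure D3:**
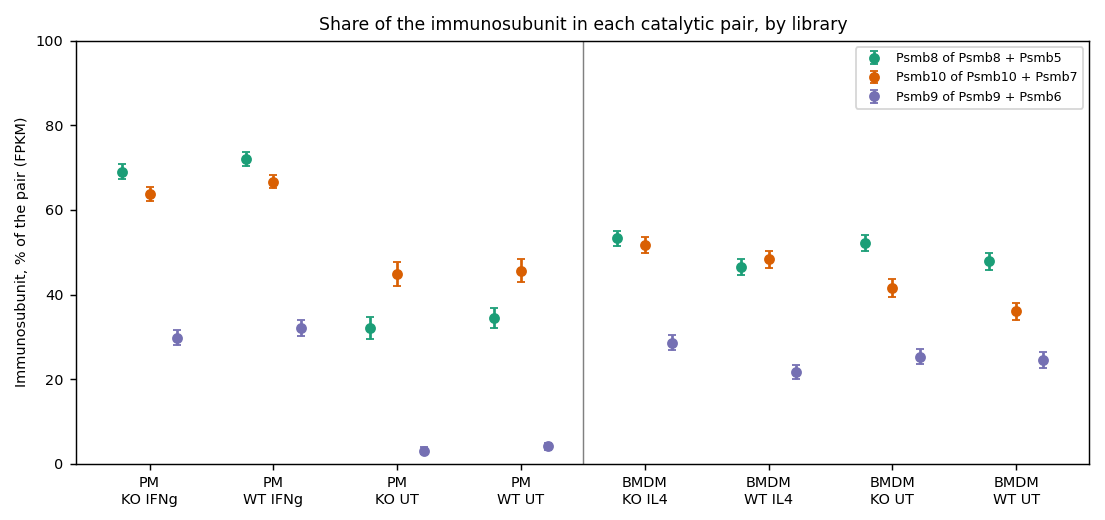
Share of the immunoproteasome gene in each pair of catalytic subunits, in percent of the pair's summed FPKM, in the 8 libraries, with exact 95% binomial intervals of counting error. The Psmb8 share is 69.0% and 72.0% in the IFN-gamma-treated libraries and 32.1% to 53.3% in the other 6.

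IL-4 raised Psmb10 in bone marrow-derived macrophages, and Psmb8 and Psme1 by less. Psme2 was also called higher, with a limit given below. Psmb10 had 62.1 and 50.9 FPKM in IL-4-treated KO and WT cells, against 38.7 and 32.0 FPKM in untreated ones, with no overlap (log2 difference 0.71 ± 0.06, edgeR adjusted p = 1.31e-05). Psme2 had 64.4 and 52.4 FPKM in treated KO and WT cells, against 44.8 and 38.9 FPKM in untreated ones, also with no overlap (0.51 ± 0.06, adjusted p = 2.50e-04). Both were called higher with every tool, filter and scaling tried. The highest adjusted p of Psme2 over edgeR, DESeq2 and limma was 0.0477. The near copy Psme2b had 18.1 and 12.1 FPKM in treated KO and WT cells, against 16.4 and 18.6 FPKM in untreated ones. In WT cells it thus moved opposite to Psme2. There Psme2 had 944.4 expected counts with IL-4, against 721.9 untreated, and Psme2b had 261.2, against 411.5. In KO cells both genes were higher with IL-4. How reads were split between the near copies was not tested, so the rise of Psme2 in WT cells is itself uncertain. Psmb8 had 77.4 and 62.2 FPKM in treated KO and WT cells, against 65.8 and 56.0 FPKM in untreated ones (0.23 ± 0.05, edgeR adjusted p = 0.0114). Psme1 had 108.0 and 94.0 FPKM in treated KO and WT cells, against 92.8 and 83.4 FPKM in untreated ones (0.23 ± 0.05, adjusted p = 0.00962). For Psmb8 the treated WT library lay below the untreated KO library, so that the groups overlapped unless genotypes were kept apart. Psmb9 had 43.1 and 31.3 FPKM in treated KO and WT cells, against 34.0 and 30.4 FPKM in untreated ones, and did not pass (0.24 ± 0.09, adjusted p = 0.0882).

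In all, 16 of 50 members rose with IL-4 and 0 fell, where 12.0% of the 12879 genes tested rose and 9.23% fell. At an unadjusted p under 0.05, 29 members were higher and 0 lower, where 18.2% of all genes tested were higher and 15.5% lower. The count depends on the tool: DESeq2 called 2 members, Psmb10 and Psme2, and the edgeR fit over all 8 libraries called 4, those 2 with Pomp and Psma3. The median log2 difference was 0.24 over the 5 immunoproteasome and PA28 genes and 0.14 over the 31 standard core and cap genes, against -0.003 over all genes tested. The dendritic cell markers summed to 1.19 and 0.96 FPKM in treated KO and WT cells, against 0.57 and 0.44 FPKM in untreated ones, and their part was not tested.

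The standard genes that rose with IL-4 did so by small amounts. Of the alpha ring, Psma3 rose by 0.34 and Psma4 by 0.31, and Pomp rose by 0.31, with 94.4 and 92.5 FPKM in treated KO and WT cells, against 78.0 and 76.6 FPKM in untreated ones. Psmb5 had 67.9 and 71.3 FPKM in treated KO and WT cells, against 60.5 and 60.9 FPKM in untreated ones (0.24 ± 0.06, edgeR adjusted p = 0.0159), and Psmb6 rose by 0.22. Psmb7 had 57.9 and 54.5 FPKM in treated KO and WT cells, against 54.6 and 56.9 FPKM in untreated ones, and did not pass (0.05 ± 0.06, adjusted p = 0.614). The IL-4 calls were kept under 4 of 6 alternative settings for Psmb5 and 2 of 6 for Psmb6. Psmb3 and Psmb4 rose by 0.22 and 0.19, the ATPases Psmc4, Psmc5 and Psmc1 by 0.24, 0.24 and 0.19, and the activators Psme4 and Psme3 by 0.25 and 0.20. No non-ATPase cap subunit passed. Of the genes around the proteasome, Irf1, Erap1 and Tapbp rose with IL-4 by 0.38, 0.31 and 0.19, Irf8 and Nlrc5 fell by 0.25 and 0.34, and Mafk, Zfand5 and the ubiquitin shuttle gene Rad23b rose by 0.21, 0.22 and 0.18.

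The difference between the IFN-gamma and the IL-4 response was tested in a fit over all 8 libraries, where cell type, stimulus, time and depth differ together. In edgeR 17 of 50 members were higher with IFN-gamma in this contrast and 1 lower, where 13.8% of 13340 genes were higher and 12.3% lower. The difference was 3.40 ± 0.23 on the log2 scale for Psmb9, 2.09 ± 0.11 for Psmb8, 1.93 ± 0.16 for Psme2, 1.84 ± 0.11 for Psme1 and 1.37 ± 0.10 for Psmb10, with edgeR adjusted p-values of 2.98e-05 to 2.41e-04. These 5 stayed past the threshold whichever library was left out. Pomp differed by 1.17 ± 0.10, Psma5 by 1.26 ± 0.12, Psma7 by 0.90 ± 0.12 and Psmb7 by 0.84 ± 0.12, and these too passed without any 1 library. Psmb5 and Psmb6 stood at -0.18 ± 0.11 and -0.17 ± 0.17 and did not pass. Leaving out single libraries gave -0.33 to -0.13 for Psmb5 and -0.46 to 0.04 for Psmb6, and both passed as lower without the untreated or without the IFN-gamma-treated KO peritoneal library. Psmd8 was the 1 member lower, at -0.35 ± 0.10 (edgeR adjusted p = 0.0443), and DESeq2 did not call it. Without any 1 bone marrow-derived library the counts were 10 higher and 0 lower, and without any 1 peritoneal library 17 to 18 higher and 2 to 3 lower.

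Untreated peritoneal and bone marrow-derived macrophages differed in the make-up of the pairs. Psmb9 had 5.73 and 9.81 FPKM in untreated KO and WT peritoneal cells, against 34.0 and 30.4 FPKM in untreated KO and WT bone marrow-derived cells, a log2 difference of -1.86 ± 0.21 (edgeR adjusted p = 4.12e-06). Its counterpart Psmb6 had 186.6 and 231.6 FPKM in peritoneal KO and WT cells, against 100.4 and 93.8 FPKM in bone marrow-derived ones (1.30 ± 0.13, adjusted p = 7.46e-07). The 2 genes of this pair therefore differed in opposite directions, and no libraries overlapped in either. Psmb8 was lower in peritoneal cells, at -0.38 ± 0.14 (edgeR adjusted p = 0.0399), a call that DESeq2 did not make, while Psmb5 was higher by 0.63 ± 0.12 (edgeR adjusted p = 3.87e-04). Psmb10 and Psme2 were higher in peritoneal cells, by 0.58 and 0.77, Pomp by 0.59 and Psmd8 by 1.13. Psme1 stood at 0.07 and Psmb7 at 0.19 and did not pass.

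Over all members 21 were higher in untreated peritoneal cells and 3 lower, where 27.5% of 12911 genes were higher and 27.5% lower. DESeq2 called 13 higher and limma 12. Of the 31 standard core and cap genes 14 were higher and 0 lower, with a median log2 difference of 0.28 against -0.01 over all genes. Among these were Psma3 and Psma4 at 0.98 and 0.59, Psmb4 at 0.33, the ATPases Psmc5, Psmc4 and Psmc6 at 0.57, 0.49 and 0.34, and the non-ATPase subunits Psmd6, Psmd12 and Psmd2 at 0.57, 0.39 and 0.33. Of the rest, Psme4 was higher by 0.32 and the chaperone Psmg2 by 0.47. Psme2b was lower, at -1.36, opposite to its near copy Psme2, and reads of these genes cannot be kept apart safely. Psmb11 and Psma8 were higher by 2.67 and 1.39, from levels under 1 FPKM in each of these 4 libraries. Psma8 rested on 15 and 9 expected counts in KO and WT peritoneal cells, against 10 and 10 in bone marrow-derived ones. Its call was kept under 1 of 3 alternative settings (adjusted p up to 0.404 over edgeR and DESeq2), and that of Psmb11 under 3 of 3. Libraries of both cell types differ in cell source, culture and depth, which cannot be told apart here.

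Loss of Slc6a8 was tested against WT within each cell type. In peritoneal macrophages 0 of 50 members passed in edgeR, where 0.0332% of 12052 genes did, and DESeq2 and limma also called 0. At an unadjusted p under 0.05, 2 members were higher in KO, Psme2b and Psme4, and 4 lower, Psmb8, Psmb10, Psmb3 and the core chaperone Psmg4, where 6.86% of all genes tested were higher and 7.08% lower at that threshold. Psmg4 had 12.1 FPKM in IFN-gamma-treated KO cells, against 25.0 FPKM in treated WT cells, and 10.4 FPKM in untreated KO cells, against 13.5 FPKM in untreated WT cells (log2 difference -0.78 ± 0.20, edgeR adjusted p = 0.267). Of these 4 libraries the treated WT one alone stood apart. The log2 difference of KO over WT was -0.36 ± 0.10 for Psmb8, -0.24 ± 0.10 for Psmb10, -0.26 ± 0.19 for Psmb9, -0.18 ± 0.10 for Psme1 and -0.06 ± 0.13 for Psme2, with edgeR adjusted p-values of 0.286 to 0.876. Psmb5, Psmb6 and Psmb7 stood at -0.18, -0.11 and -0.12 and Pomp at -0.15. The median was -0.24 over the 5 immunoproteasome and PA28 genes and -0.07 over the 31 standard genes, against 0.01 over all genes.

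In bone marrow-derived macrophages 3 members were higher in KO than in WT and 0 lower, where 1.51% of 12879 genes were higher and 3.68% lower. At an unadjusted p under 0.05, 10 were higher and 1 lower, where 7.42% of all genes tested were higher and 10.3% lower. The 3 were Psmb10 at 0.28 ± 0.06 (edgeR adjusted p = 0.0179), Psmb8 at 0.28 ± 0.05 (edgeR adjusted p = 0.0159) and Psme2 at 0.26 ± 0.06 (edgeR adjusted p = 0.0392). Psmb8 had 77.4 FPKM in IL-4-treated KO cells, against 62.2 FPKM in IL-4-treated WT cells, and 65.8 FPKM in untreated KO cells, against 56.0 FPKM in untreated WT cells. Both KO libraries thus lay above both WT libraries for Psmb8, whereas for Psmb10 the treated WT library, at 50.9 FPKM, lay above the untreated KO library, at 38.7 FPKM. Psmb9 and Psme1 were at 0.32 ± 0.09 and 0.18 ± 0.05 and did not pass (edgeR adjusted p = 0.0774 and 0.0823).

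These 3 calls depend on the model. DESeq2, limma on log2(FPKM + 1) and the fit over 8 libraries called 0 members, limma on log2(FPKM + 0.1) called 1, Psmb10, and edgeR with no filter on low counts called 6, the same 3 with Psmb4, Psmb9 and Psme1. Standard subunits did not pass in the main fit: Psmb5, Psmb6 and Psmb7 stood at -0.04, 0.02 and 0.02, Pomp at 0.03, and the median over the 31 standard genes was 0.03. Of the genes around the proteasome, the small cap subunit Sem1 and the transporter Tap2 rose in KO, by 0.27 and 0.21. The summed fibroblast or mesothelium markers were 110.7 and 130.3 FPKM in treated and untreated KO cells, against 234.0 and 248.8 FPKM in WT ones, and their part in these results was not tested.

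A genotype term over all 8 libraries called 0 members in edgeR, where 0.0075% of 13340 genes passed, and 1 member, Psme4 at 0.16 ± 0.06, was at an unadjusted p under 0.05 (edgeR adjusted p = 0.486), where 9.54% of all genes tested were. DESeq2 and limma also called 0. The term was -0.03 ± 0.13 for Psmb8, 0.02 ± 0.11 for Psmb10 and 0.10 ± 0.10 for Psme2. The genotype term in peritoneal minus that in bone marrow-derived macrophages was -0.64 ± 0.10 for Psmb8, -0.53 ± 0.10 for Psmb10, -0.52 ± 0.22 for Psmb9, -0.37 ± 0.11 for Psme1 and -0.32 ± 0.16 for Psme2. None of the 50 members passed in edgeR, where 0.127% of 13340 genes did, and the adjusted p was 0.0848 for Psmb8 and 0.108 for Psmb10. At an unadjusted p under 0.05, 8 members were lower in this contrast and 0 higher, where 7.9% of all genes tested were lower and 7.77% higher. DESeq2 and edgeR with no filter each called 1, Psmb8, with adjusted p-values of 0.0242 and 0.0389. Without any 1 peritoneal library 4 or 5 members passed, Psmb8, Psmb10 and Psmb4 in each case, and without any 1 bone marrow-derived library 0 did. Psme1 and Psme2 passed without either IFN-gamma-treated peritoneal library. Leaving out single libraries gave -1.16 to -0.37 for Psmb9 and -0.59 to -0.13 for Psme2. In each such fit the residual spread came only from the cell type that kept all its libraries. The share of all genes passing in these fits is not given, so the counts cannot be set against one.

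**Figure D4:**
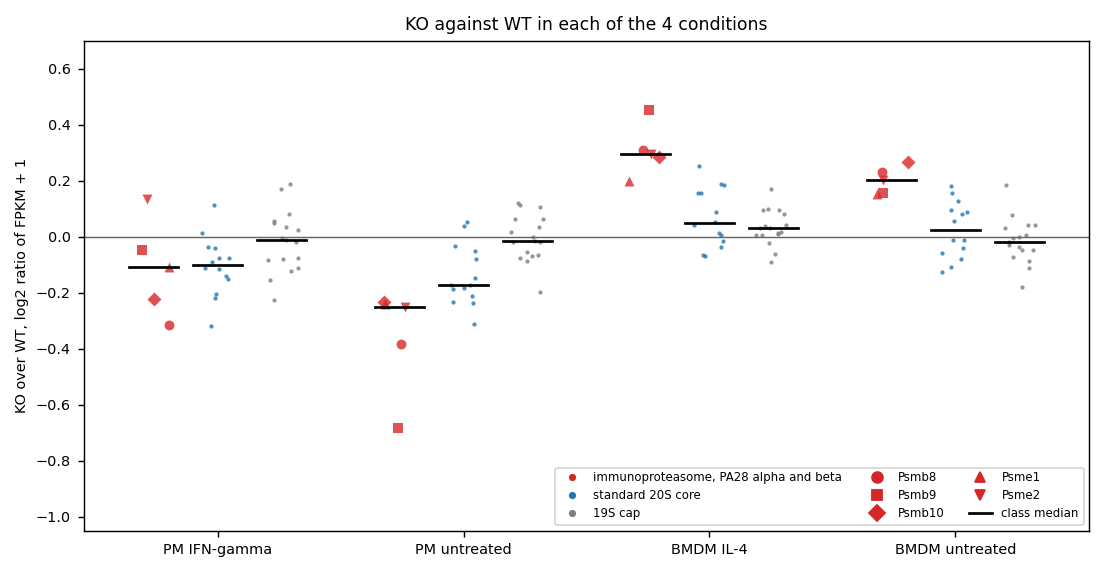
Log2 ratio of KO over WT of FPKM plus a pseudocount of 1 for proteasome genes, in the 4 conditions, with 1 KO and 1 WT library behind each point and no error bar. The medians of the 5 immunoproteasome and PA28 genes are -0.11 and -0.25 in IFN-gamma-treated and untreated peritoneal cells, against 0.29 and 0.20 in IL-4-treated and untreated bone marrow-derived cells.

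Single pairs of libraries were also compared on the log2(FPKM + 1) scale, which understates changes of low genes. On it, all genes had a median IFN-gamma over untreated ratio of -0.11 in KO and -0.05 in WT cells, against 2.21 and 2.11 over the 5 immunoproteasome and PA28 genes. Those 5 genes had a median KO over WT ratio of -0.11 in IFN-gamma-treated and -0.25 in untreated peritoneal cells, and of 0.29 in IL-4-treated and 0.20 in untreated bone marrow-derived cells. The 31 standard genes had medians of -0.08 and -0.05 in the 2 peritoneal pairs and of 0.03 and -0.01 in the 2 bone marrow-derived pairs. Psmb9 had the lowest ratio of the 5 in untreated peritoneal cells, -0.68, and the highest in IL-4-treated bone marrow-derived cells, 0.45. Psme2 was the 1 gene of the 5 with a ratio above 0 in a peritoneal pair, 0.13 with IFN-gamma. Whether KO cells responded more than WT cells was not tested, since an interaction leaves no residual spread within the 4 libraries of a cell type and no fit that borrows the spread of the other cell type was made. Over the 5 genes, the median by which the KO response exceeded the WT response was 0.13 with IFN-gamma and 0.08 with IL-4, against -0.06 and 0.01 over all genes. The highest of the 5 was Psmb9 in both, at 0.64 and 0.29, and Psmb10 stood at 0.01 and 0.02.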

How the data were processed

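RNA from 8 macrophage cultures, 1 per group, was sequenced with standard Illumina libraries, per the labels' protocols. Reads were handled with Bowtie2 2.2.5 and RSEM on mm10, per the submitters' processing notes. The version of RSEM and the strand setting of the counting are not given in the sources used here. For each gene and library the authors deposited an expected count and an FPKM value, and FPKM was used as deposited, with no scaling between libraries. Expected counts were whole within 0.005 for 70.1% to 77.8% of genes and were rounded for the tests. Of 18125 gene identifiers, 18076 matched RefSeq's GRCm38.p6 annotation and 42 kept the symbol of the deposited tables. A gene not listed in a library was set to 0.

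Additive models of genotype and stimulus were fitted to the 4 libraries of a cell type with edgeR 4.0.16 in R 4.3.3 (quasi-likelihood test, TMM scaling, filterByExpr), leaving 1 residual degree of freedom. Untreated cell types were compared in an additive model of genotype and cell type over the 4 untreated libraries, which also left 1. The genotype term over 8 libraries had 3, and the differences between terms had 2. P-values were adjusted by Benjamini-Hochberg over all genes tested, and genes under 0.05 were called. SEs are the estimate divided by the square root of its F statistic. Alternatives were RLE scaling, no filter, DESeq2 1.42.0, limma 3.58.1 on log2 FPKM with a pseudocount of 1 or 0.1 and a mean of at least 1 FPKM, a fit over all 8 libraries, and leaving out single libraries. Shares and single pairs used FPKM, with no test. A gene at about 1 FPKM rested on a median of 28.0 to 31.0 counts in peritoneal and 49.4 to 61.5 in bone marrow-derived libraries. As a coefficient of variation common to all genes, edgeR fitted a spread between libraries of 10.4% for peritoneal cells and of 4.57% for the bone marrow-derived ones.

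The members, the lists around them and the tests were chosen with earlier results of these data known. The immunoproteasome and PA28 genes, Psmb5, Psmb6, Psmb7 and Pomp were named in each comparison. Of the others, those past the threshold were named, or in roles with more than 3, mostly the 2 highest and 2 lowest, with some members named for contrast after their values were seen. Start regions came from RefSeq's table for GRCm38.p6. Some items are not reported here.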

Additional observations from a re-analysis of the deposited data

Results flagged for a closer look

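In 5 of the 9 genes named in every comparison KO lay below WT in both pairs of peritoneal libraries and above WT in both pairs of bone marrow-derived libraries, so that the genotype difference ran in opposite directions in the cell types. The difference itself was tested over 8 libraries in edgeR, and none of the 5 passed. For Psmb8 it was -0.64 on the log2 scale (edgeR adjusted p = 0.0848), with KO over WT ratios of -0.31 and -0.38 in IFN-gamma-treated and untreated peritoneal cells and 0.31 and 0.23 in IL-4-treated and untreated bone marrow-derived cells. For Psmb10 it was -0.53 (edgeR adjusted p = 0.108), with ratios of -0.22 and -0.23 in peritoneal and 0.28 and 0.27 in bone marrow-derived cells. For Psmb9 it was -0.52 (edgeR adjusted p = 0.314), with ratios of -0.05 and -0.68 in peritoneal and 0.45 and 0.16 in bone marrow-derived cells. Psme1 stood at -0.37 (edgeR adjusted p = 0.219) and Pomp at -0.19 (edgeR adjusted p = 0.392). The ratios of Psme1 were -0.11 and -0.24 in peritoneal and 0.20 and 0.15 in bone marrow-derived cells. Those of Pomp were -0.15 and -0.13 in peritoneal and only 0.03 and 0.03 in bone marrow-derived cells. Psme2 was not among the 5, because its treated peritoneal pair was higher in KO. Of the 47 members with a ratio in both cell types, 11 showed this pattern, or 23.4%, where 9.34% of 10073 genes did. The other 6 were Psma7, Psmb1, Psmb2, Psmb4, Psmd8 and Psmg4. The pattern rests on signs alone, and some ratios were small. Psmb1 had 0.006 in IL-4-treated bone marrow-derived cells and Psmd8 -0.017 in IFN-gamma-treated peritoneal cells. The reverse pattern was seen in 1 member, Psme3, and in 8.53% of the genes.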

How the results depend on the processing

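No paired analysis was possible because every group holds 1 replicate. With 1 library per group, fits over 4 libraries keep no residual spread once a library is left out, so single libraries were left out of the fits over 8 libraries, where the lone library of an arm is assumed to vary like the other cell type. That spread was fitted at 10.4% for peritoneal and 4.57% for bone marrow-derived cells. For differences between terms, counts without 1 library thus also depend on which cell type gives the spread. Depth limits low members most, such as Psma8 at 8 to 18 expected counts per library.

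No result reversed its direction past the threshold under any alternative. With RLE scaling every member named kept its call. The IFN-gamma count of 22 higher members was 13 in DESeq2, and the count of 0 lower members was 1, Psmd8, in limma with either pseudocount and in the fit over 8 libraries. The IL-4 count of 16 was 2 in DESeq2 and 4 in the fit over 8 libraries. The 3 members higher in KO bone marrow-derived cells were 6 with no filter, 0 in DESeq2, 0 in limma with a pseudocount of 1, 1 with 0.1 and 0 in the fit over 8 libraries. For the difference between the IFN-gamma and IL-4 terms, leaving out single libraries gave 10 to 18 higher and 0 to 3 lower members, and DESeq2 gave 0 lower. For the genotype difference between cell types, DESeq2 and no filter gave 1 lower member and leaving out single libraries 0 to 5. The genotype term over 8 libraries gave 0 either way in every case. The 21 members higher in untreated peritoneal cells were 13 in DESeq2 and 12 in limma with either pseudocount. Shares of all genes called are given for the main fits only, so the counts of the alternatives stand without one. The cause of these shifts was not tested.

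Rescaling libraries to their median gene ratio shifted the pair medians of the member groups by between -0.04 and 0.11. For the KO minus WT response of the 31 standard genes to IFN-gamma, 0.03 became 0.10, outside the 95% binomial interval of that median over its members. That interval covers the spread among the genes only and no error between libraries. Shares taken from expected counts, which are not per length, differed from those of FPKM. For Psmb8 they were 76.0% and 78.5% in IFN-gamma-treated KO and WT cells, against 40.2% and 42.8% in untreated ones, and 61.8% and 55.4% in IL-4-treated KO and WT cells, against 60.8% and 56.6% in untreated ones. For Psmb9 they were 24.5% and 26.7% in IFN-gamma-treated cells, against 2.3% and 3.2% in untreated KO and WT cells, and 23.6% and 17.6% with IL-4, against 20.7% and 19.9%. For Psmb10 they were 70.0% and 72.6% with IFN-gamma, against 51.7% and 52.6%, and 58.6% and 55.3% with IL-4, against 48.4% and 42.7%.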
